A study of Mus musculus with 12 samples.

Results

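Stimulation through the T cell receptor without added costimulation was measured in 3 RNA sequencing libraries of primary mouse CD4+ (helper) T cells after 72 h on plate-bound anti-CD3 (the CD3 group). They were set against 3 libraries of freshly isolated CD4+ T cells that had received no activation (the Unstimulated group). Unstimulated is the word of their titles, while their descriptions and the columns of deposited values call them Naive_CD4. The 6 libraries were chosen by their labels from the 12 of the series. All of the 9826 genes, of 17203 listed, that reached 10 CPM in at least 3 of the 12 libraries were compared. CPM are read counts per 1000000 reads assigned to genes. Cells of all groups came from C57BL/6 mice, and the protocol names RPMI-1640 with 10% serum as the medium. No transgene, deletion or age is given, and the labels do not say whether cells were pooled over animals. A further 3 libraries came from cells given plate-bound anti-CD3 and soluble anti-CD28 (CD3_CD28) and 3 from cells given soluble anti-CD3, anti-CD28 and anti-ICOS (CD3_CD28_ICOS), both for 72 h. They serve below to show where cells given anti-CD3 alone differ from cells given costimulation too. In CD3_CD28_ICOS the format of anti-CD3 differs as well, and its effect and that of the added antibodies cannot be told apart. Transduced cells are named in the design text, though in none of the sample labels. The Unstimulated cells were not cultured, so the effect of receptor stimulation and that of 72 h in culture cannot be told apart.

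The T cell receptor recognises antigen, and the CD3 chains bound to it pass the signal on through the kinases LCK and ZAP70. Calcium entry then activates the phosphatase calcineurin, which sends NFAT transcription factors to the nucleus, while RAS and protein kinase C theta lead to AP-1 and NF-kB. Costimulatory receptors such as CD28 strengthen the AP-1 and NF-kB branches and interleukin-2 production, and in mouse T cells a receptor signal without costimulation is known to favour a hyporesponsive state called anergy. CD4+ T cells that respond leave quiescence, enlarge, change their metabolism and divide.

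The depth, in units of 1000000 assigned reads, was 11.4 to 26.5 in CD3 and 22.5 to 27.4 in Unstimulated libraries, as estimated from the steps between low values. Libraries of 1 group correlated with each other at 0.984 to 0.993 across genes on the log2 scale. Some libraries stood apart. Unstimulated replicates 1 to 3 held 70.7, 30.9 and 1275 CPM of the immediate-early gene Fos and 4.89, 1.97 and 90.8 CPM of the heat shock gene Hspa1a, so replicate 3 was far above the others in both. Unstimulated libraries also held transcripts of other tissues. Genes of pancreatic acinar cells summed to 2.19, 2.16 and 1.70 CPM in CD3 against 2828, 2485 and 555 CPM in Unstimulated libraries, myeloid markers to 68.2, 75.7 and 103 against 706, 312 and 296 CPM, and erythroid and platelet markers to 5.0, 2.13 and 3.50 against 206, 141 and 111 CPM. B cell markers were highest in CD3 replicate 3, at 1778, 1775 and 3264 CPM in CD3 against 2447, 1565 and 1974 CPM in Unstimulated libraries. Singly they split. In the test described below 5 of 16 were called higher in CD3, 2 lower and 9 neither, against 43.6% and 26.3% of all genes. Their log2 fold changes ran from -2.55 to 2.78. Cd79a, a chain of the B cell receptor, was at 45.6, 45.7 and 88.8 CPM in CD3, 35.5, 23.3 and 49.5 CPM in Unstimulated and 0.765 ± 0.427 CPM in CD3_CD28 libraries (mean ± SD, n = 3). Their part in the differences below was not tested, except that values without a named library are given where they differ. In bulk samples, fewer cells of a type and less RNA per cell cannot be told apart.

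Of the 9826 genes, 4280 were higher in CD3 than in Unstimulated cells (43.6% of genes tested) and 2582 were lower (26.3%). These calls are at an adjusted p under 0.05 in limma, a linear model fitted across all genes on log2(CPM + 1). No label ties the 3 libraries of a group to separate mice or cultures, and these p-values then measure only the spread between libraries, which may be technical. By at least 1 log2 unit, 1714 genes rose and 711 fell, and by at least 3 log2 units 338 rose and 88 fell. The values of the 3 CD3 and the 3 Unstimulated libraries did not overlap in 7552 genes (76.9%). The median log2 fold change of all genes was 0.18, with quartiles of -0.32 and 0.72, so a list with a median near 0.18 moved like genes in general. That centre depends on the scaling. It moved by -0.25 under quantile normalization, with 3119 genes higher and 3766 lower, and by -0.17 under median of ratios, with 3544 and 3466. Single genes moved by more or less than this centre, and changes are given as deposited unless stated. In the authors' deposited table of their own comparison, 2554 of the tested genes were higher and 1378 lower in CD3 at a false discovery rate under 0.05. Fold changes below are log2 fold changes on the log2(CPM + 1) scale, CD3 over Unstimulated, with their SE, and understate the change of genes with low values.

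**Figure D1:**
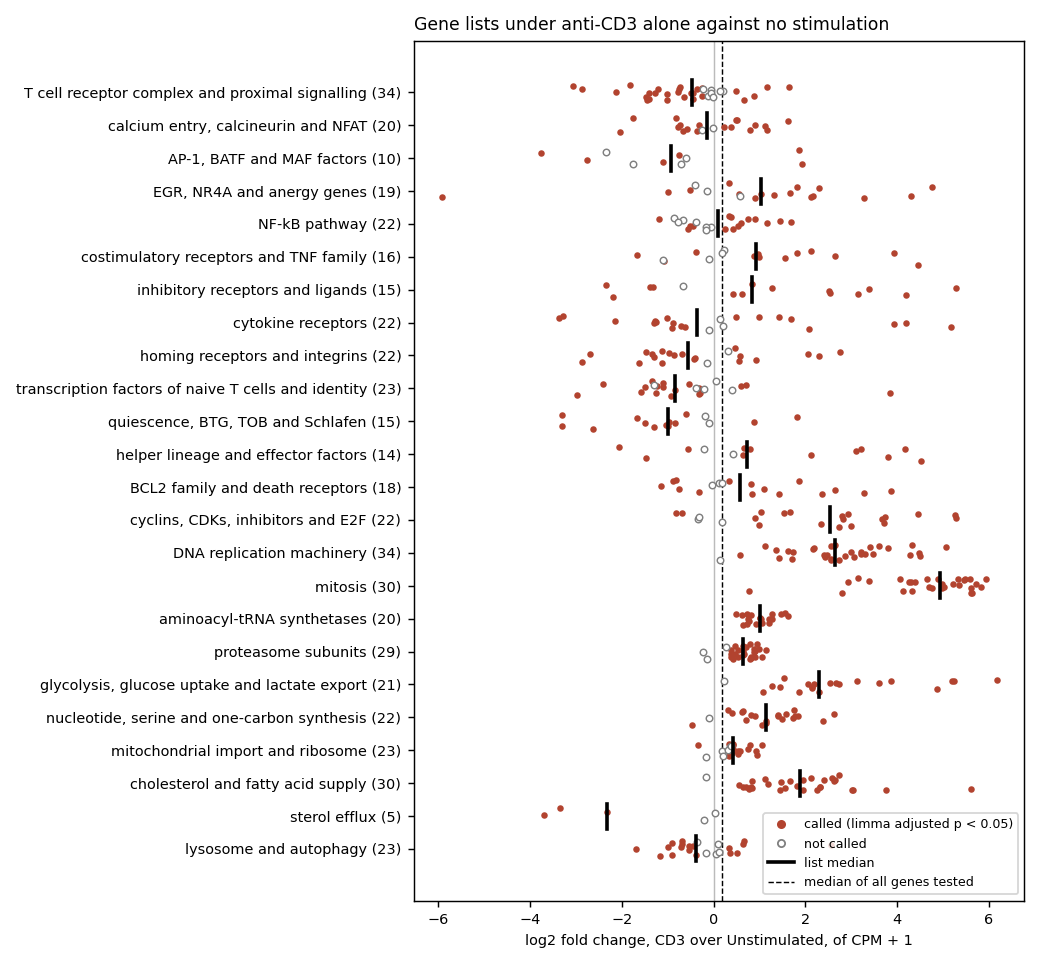
Log2 fold change, CD3 over Unstimulated, of each tested member (points, filled where called by limma at an adjusted p under 0.05) of 24 gene lists, with the list median (vertical bar) and the median of all 9826 genes (dashed line, 0.18). Mitosis genes sit farthest to the right, with a median of 4.94. Members of the lists of naive T cell identity, quiescence and sterol efflux lie mostly to the left of 0.

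Most genes of the receptor complex and its proximal kinases were lower in CD3 cells. Of 34 tested members 22 fell and 5 rose, with a median of -0.48. Cd247, which encodes the CD3 zeta chain (chromosome 1, 165788681 to 165877277 of GRCm38), stood at 204, 216 and 187 CPM in CD3 against 502, 544 and 559 CPM in Unstimulated libraries, which is a change of -1.40 ± 0.08 (limma adjusted p = 2.61e-09). Lck, the kinase that phosphorylates the CD3 chains, stood at 653, 595 and 580.1 CPM in CD3 against 963, 1160.3 and 978 CPM in Unstimulated libraries (-0.76 ± 0.09, limma adjusted p = 2.85e-06). Neither gene had a CD3 library within the range of the Unstimulated ones. Cd4, the co-receptor gene that defines the lineage, stood at 596, 571 and 528 CPM against 1123, 1165 and 1138 CPM, and Cd3e at 419.9, 383 and 363 CPM against 567, 534 and 484 CPM, so both markers were well expressed in both groups. Of 10 CD4+ T cell identity markers 9 were lower in CD3 cells and none was higher. The deepest fall on the receptor list was that of Trat1, an adaptor that stabilises the receptor complex (-3.06 ± 0.17). The next deepest were those of Sit1 and Pag1, adaptors that restrain receptor signalling, so inhibitors moved in both directions. The 5 that rose include Zap70 (0.49 ± 0.10), the kinase that binds the phosphorylated zeta chain, and 2 inhibitors of receptor signalling. These were Ptpn22, a phosphatase, at 441, 334 and 373 CPM in CD3 against 194, 158 and 159 CPM in Unstimulated libraries (1.16 ± 0.13), and Ubash3b, which encodes the phosphatase STS-1, at 176, 133 and 143 against 51.6, 55.1 and 37.6 CPM (1.64 ± 0.15, limma adjusted p = 3.16e-07).

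Calcium entry, calcineurin and NFAT genes moved in both directions, with a median of -0.13. Of 20 tested members 9 rose, near the 43.6% of all genes, and 9 fell, against 26.3%. Nfatc1, the gene of NFAT2, whose short isoform is known to be induced by NFAT itself, stood at 489.8, 443 and 408 CPM in CD3 against 253, 219.5 and 241 CPM in Unstimulated libraries (0.91 ± 0.11, limma adjusted p = 5.37e-06). Nfatc2, the gene of NFAT1, which resting T cells hold, moved the other way with 87.7, 100.2 and 87.03 CPM in CD3 against 149.6, 155 and 151 CPM in Unstimulated libraries (-0.73 ± 0.11). The groups did not overlap for either gene. Ppp3cc, which encodes a calcineurin catalytic chain, was higher (1.62 ± 0.09), and Orai2, a channel subunit that tempers store-operated calcium entry, stood at 48.4, 44.1 and 48.9 CPM in CD3 against 189.7, 212 and 189 CPM in Unstimulated libraries (-2.04 ± 0.09). CPM do not separate isoforms, so the short and long forms of Nfatc1 were not distinguished.

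AP-1 genes showed no common rise. Of 10 tested members of the AP-1, BATF and MAF list 2 rose and 4 fell. Fosl2, which encodes a FOS relative, stood at 72.1, 76.6 and 49.96 CPM in CD3 against 13.5, 10.3 and 31.6 CPM in Unstimulated libraries (1.92 ± 0.43, limma adjusted p = 0.0025), and Batf, the partner of IRF4 at composite sites, at 16.5, 17.9 and 17.2 against 33.8, 29 and 26.8 CPM (-0.76 ± 0.17). Fos stood at 9.56, 10.7 and 8.33 CPM in CD3, below each Unstimulated library. Its log2 fold change of -3.77 ± 1.12 rested in part on Unstimulated replicate 3, being -2.19 without that library, and was not called in a fit of the 6 libraries alone (limma adjusted p = 0.0792). Jun, at 31.8, 59.6 and 48.8 CPM in CD3 against 71.98, 45.8 and 1094 CPM in Unstimulated libraries, was not called, but was without Unstimulated replicate 2 (-2.61). 

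Feedback genes of the receptor signal, the EGR and NR4A factors and genes tied to anergy, mostly rose. Of 19 tested members 13 rose and 3 fell, with a median of 1.04 against 0.18 for all genes. The largest rise on the list was that of Bhlhe40, a helix-loop-helix factor that shapes T cell cytokine production, with 154, 234 and 203 CPM in CD3 against 6.35, 2.88 and 12.2 CPM in Unstimulated libraries (4.75 ± 0.40, limma adjusted p = 1.99e-06). Nr4a2 and Nr4a3 encode orphan nuclear receptors that restrain T cell activation. Nr4a3 (chromosome 4, 48045153 to 48086447) stood at 372, 323 and 270.1 CPM in CD3 against 32.5, 28.5 and 35.5 CPM in Unstimulated libraries (3.27 ± 0.23, limma adjusted p = 8.87e-08), and Nr4a2 at 73.96, 61.7 and 53.5 against 2.18, 1.46 and 3.302 CPM (4.30 ± 0.31). Nr4a1, at 294, 243 and 208 CPM in CD3, was at 47.5, 37.3 and 248 CPM in Unstimulated libraries. Replicate 3 of that group overlaps the CD3 values, and the call (1.68 ± 0.62, limma adjusted p = 0.0361) was lost without any 1 of the other 5 libraries, with values of 1.17 to 1.80, and kept at 2.52 without Unstimulated replicate 3. It was also lost under median of ratios (1.51, limma adjusted p = 0.0514), with a replicate block (limma adjusted p = 0.0510) and in a fit of the 6 libraries alone (limma adjusted p = 0.1227). Egr2, a zinc finger factor that drives anergy genes in mouse T cells, stood at 111, 67.2 and 66.5 CPM in CD3 against 15.4, 13.5 and 16.8 CPM in Unstimulated libraries (2.31 ± 0.28, limma adjusted p = 1.03e-05), and Egr3 rose by 1.81 ± 0.14. Among the effectors of anergy, Cblb, an E3 ubiquitin ligase that sets the need for CD28, rose to 981, 854 and 847 CPM in CD3 against 218, 185 and 207 CPM in Unstimulated libraries (2.13 ± 0.11, limma adjusted p = 1.12e-09). Dgka, a diacylglycerol kinase that is also held up in anergic cells, moved the other way (-1.003 ± 0.12). So did Dtx1, an E3 ligase known as a target of NFAT in anergic T cells, with 4.47, 7.36 and 5.58 CPM in CD3 against 367, 418 and 439.5 CPM in Unstimulated libraries (-5.93 ± 0.21, limma adjusted p = 1.37e-10). Izumo1r, which encodes folate receptor 4, was 0.91 log2 units higher. Ndrg1, an anergy factor that is also induced by low oxygen, rose by 2.17 ± 0.67, a call lost without CD3 replicate 2 (1.92, limma adjusted p = 0.0601).

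RAS and MAP kinase genes split, with 6 of 14 higher, near the 43.6% of all genes, and 5 lower, against 26.3%. The largest rises were among inhibitors. Spry1 stood at 81, 63.3 and 64.1 CPM in CD3 against 3.38, 2.59 and 4.34 CPM in Unstimulated libraries (4.0 ± 0.23), and Dusp4, a nuclear phosphatase of ERK, at 119, 84.6 and 88.3 against 3.197, 2.08 and 6.86 CPM (4.38 ± 0.27). Rasgrp1, the exchange factor that couples the receptor to RAS, was lower (-1.08 ± 0.11). The largest called fall was that of Dusp1, also a phosphatase of MAP kinases, so inhibitors moved in both directions. In the PI3K, mTOR and FOXO list, 10 of 22 fell and 5 rose, 15 and 1 under median of ratios. Foxo1, the factor that keeps naive T cells quiescent, stood at 188, 166 and 182 CPM in CD3 against 526, 619 and 495 CPM in Unstimulated libraries (-1.60 ± 0.10, limma adjusted p = 6.03e-09), and Pik3ip1, a membrane inhibitor of PI3K, at 62.2, 43.1 and 53.6 against 222, 172 and 127 CPM (-1.67 ± 0.19). Within the NF-kB pathway 11 of 22 rose and 4 fell, against 43.6% and 26.3% of all genes. The list median was 0.098, against 0.18 for all genes, and under median of ratios 7 rose and 9 fell. The precursor genes Nfkb2 (1.68 ± 0.18) and Nfkb1 (0.91 ± 0.07) and the subunit gene Rel (1.44 ± 0.18) rose as deposited. Prkcq, the gene of the protein kinase C isoform that links CD28 and the receptor to NF-kB, stood at 267, 207 and 219 CPM in CD3 against 537, 549 and 489 CPM in Unstimulated libraries (-1.19 ± 0.10).

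Receptors that act once a T cell is activated were mostly gained, with the count of rises sensitive to the scaling. Of 16 tested costimulatory and TNF family genes 9 rose and 3 fell, with a median of 0.93, and 7 rose and 4 fell with a median of 0.32 under quantile normalization. Tnfrsf9, which encodes 4-1BB (chromosome 4, 150914562 to 150946102), stood at 405, 437 and 362 CPM in CD3 against 29.8, 25.9 and 20.9 CPM in Unstimulated libraries (3.94 ± 0.13, limma adjusted p = 6.88e-11), and Tnfrsf4, which encodes OX40, at 173, 205 and 142 against 8.21, 5.83 and 6.603 CPM (4.46 ± 0.18, limma adjusted p = 3.89e-10). Tnfrsf18, which encodes GITR, was 1.83 log2 units higher. The receptors that costimulating antibodies would engage also rose. Cd28 stood at 664, 639.8 and 587 CPM in CD3 against 336, 342 and 285 CPM in Unstimulated libraries (0.97 ± 0.10), and Icos at 90.2, 87.2 and 79.05 against 49.6, 41.7 and 36.97 CPM (0.99 ± 0.10). For all 5 genes each CD3 library was above each Unstimulated one. Cd40lg, the helper ligand that instructs B cells, was lower, with 21.7, 22.6 and 18.1 CPM in CD3 against 61.7, 73.9 and 69.4 CPM in Unstimulated libraries (-1.67 ± 0.17, limma adjusted p = 1.46e-06).

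Inhibitory receptors and ligands rose in 10 and fell in 4 of 15 tested members, with a median of 0.84. Lag3, an inhibitory receptor for MHC class II (chromosome 6, 124904361 to 124911705), stood at 196, 155 and 134 CPM in CD3 against 5.95, 2.15 and 2.22 CPM in Unstimulated libraries (5.28 ± 0.25, limma adjusted p = 3.48e-09). Ctla4, which competes with CD28 for ligand, stood at 147, 164 and 151 CPM in CD3 against 8.88, 4.59 and 9.99 CPM in Unstimulated libraries (4.19 ± 0.24, limma adjusted p = 1.43e-08). In both genes the lowest CD3 library was far above the highest Unstimulated one. Pdcd1, the gene of PD-1, stood at 70.3, 40.05 and 46.3 CPM in CD3 against 13.2, 7.504 and 4.87 CPM in Unstimulated libraries (2.54 ± 0.32), and Tigit at 47.4, 32.2 and 28.4 against 4.93, 1.06 and 2.303 CPM (3.40 ± 0.31). Pdcd1 was lower in CD3_CD28 than in CD3 cells, at 11.8 ± 1.801 CPM (SD, n = 3) against 52.2 ± 15.96 CPM in CD3 (-2.02 ± 0.32, limma adjusted p = 2.00e-04). The 4 that fell include Cd96, a receptor for nectins, with 47.99, 41.2 and 47.4 CPM in CD3 against 229.6, 257 and 217 CPM in Unstimulated libraries (-2.34 ± 0.16). Havcr2, the gene of TIM-3, was below the level tested, at 0.965, 0.152 and 0.377 CPM in CD3 and 1.47, 0.692 and 0.912 CPM in Unstimulated libraries.

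**Figure D2:**
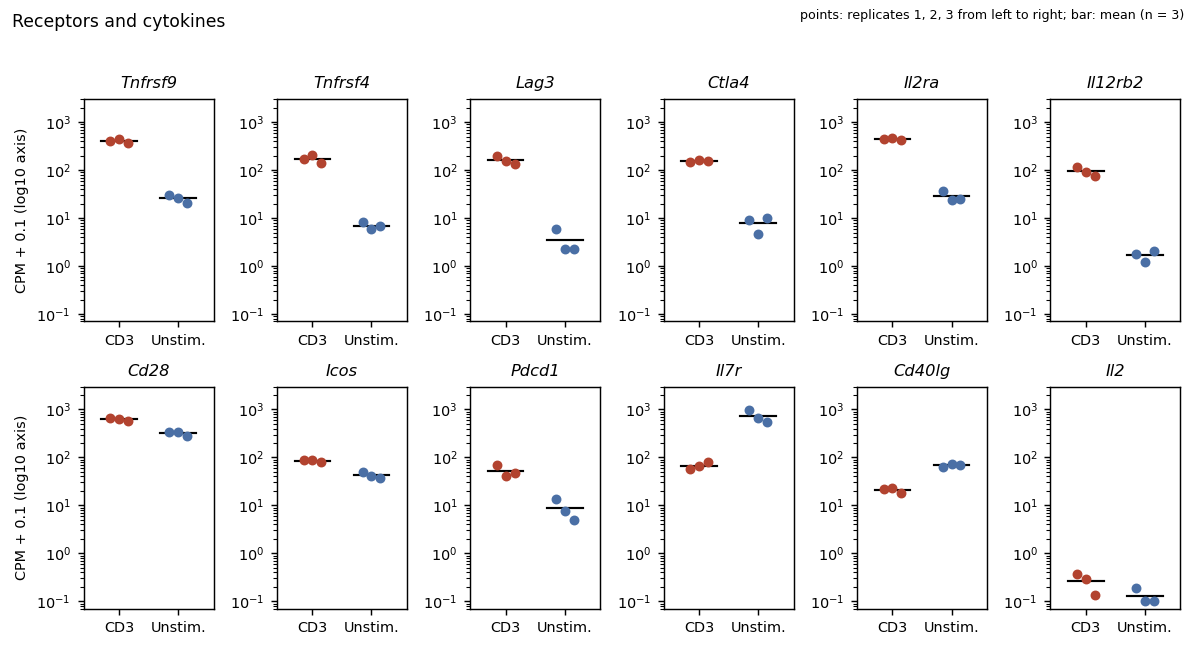
CPM of 12 receptor and cytokine genes in each library (points, log10 axis of CPM + 0.1) with the group mean (bar), in CD3 (left) and Unstimulated (right) cells. Tnfrsf9, Tnfrsf4, Lag3, Ctla4, Il2ra and Il12rb2 are higher in each CD3 library and Il7r and Cd40lg lower, while Il2 stays at or under 0.268 CPM in each library of both groups.

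Cytokine receptors moved in both directions. Of 22 tested members 8 rose and 11 fell. Il2ra, the chain that gives the interleukin-2 receptor high affinity (chromosome 2, 11642807 to 11693193), stood at 445, 458 and 418 CPM in CD3 against 36.5, 23.4 and 25.2 CPM in Unstimulated libraries (3.94 ± 0.14, limma adjusted p = 1.17e-10). Il12rb2, the inducible chain of the interleukin-12 receptor, stood at 118, 89.5 and 74.1 CPM in CD3 against 1.71, 1.09 and 1.96 CPM in Unstimulated libraries (5.18 ± 0.18, limma adjusted p = 1.15e-10). Receptors that resting cells use for survival signals went the other way. Il7r, the interleukin-7 receptor chain, stood at 58.3, 66.4 and 78.2 CPM in CD3 against 966, 667 and 535 CPM in Unstimulated libraries (-3.37 ± 0.25, limma adjusted p = 1.45e-07), and Il6ra at 52.8, 50.1 and 47.3 against 482, 544 and 468 CPM (-3.29 ± 0.10). Tgfbr2, the ligand-binding receptor for TGF-beta, was lower too (-2.16 ± 0.13). For each of these 5 genes the groups were apart, and the direction was the same under both other scalings. Downstream, 11 of 17 JAK, STAT and SOCS genes rose and 3 fell, with Jak3, the kinase of the common gamma chain, higher by 1.70 ± 0.14 and Stat5a by 1.18 ± 0.10. Cish, a target of STAT5 that dampens cytokine and receptor signals, stood at 39.7, 65.05 and 40.2 CPM in CD3 against 22.7, 14.7 and 21.3 CPM in Unstimulated libraries (1.25 ± 0.21), and Socs3 at 15, 28.7 and 25.3 against 103, 54.8 and 66.1 CPM (-1.66 ± 0.27).

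Few cytokine genes reached the level tested at 72 h. Of 31 listed secreted cytokines and chemokines, 12 did so, and of these 7 rose and 3 fell. Il2 stood at 0.268, 0.194 and 0.0385 CPM in CD3 and 0.0905, 0 and 0 CPM in Unstimulated libraries, and at 2.81 ± 1.04 CPM in CD3_CD28 ones (SD, n = 3). Ifng stood at 2.28, 1.37 and 0.791 CPM in CD3 and 0.4399, 0.0729 and 1.13 CPM in Unstimulated libraries, and Il4 at 0, 0.304 and 0 CPM in CD3 and 0.222, 0 and 0 CPM in Unstimulated libraries. Il21, the cytokine of follicular helper cells, stood at 0.526, 0.0759 and 0.151 CPM in CD3 and 0.488, 0.146 and 0.261 CPM in Unstimulated libraries. In CD3 libraries a single read counts for 0.0377 to 0.0877 CPM, so these values rest on few reads, and none was tested. Tnf, at 11.7, 10.2 and 9.91 CPM in CD3 against 4.66, 4.26 and 12.1 CPM in Unstimulated libraries, was called higher (0.66 ± 0.26) but lost the call without any 1 library other than Unstimulated replicate 3, without which it was 1.09, was also not called under median of ratios (0.51) or in a fit of the 6 libraries alone, and turned to -0.055 under quantile normalization. Lta, the gene of lymphotoxin alpha, was lower, at 5.001, 9.19 and 8.101 CPM in CD3 against 12.7, 15.7 and 12.1 CPM in Unstimulated libraries (-0.81 ± 0.18). The largest rises were of a chemokine and a matrix protein gene. Ccl22, a chemokine that attracts CCR4-bearing cells, stood at 71.5, 91.4 and 162 CPM in CD3 against 0.666, 0.364 and 0.304 CPM in Unstimulated libraries (6.16 ± 0.33, limma adjusted p = 6.92e-09), and Spp1, which encodes osteopontin, at 37.5, 18.03 and 28.97 against 0.0888, 0.109 and 0.0434 CPM (4.70 ± 0.37). Ccl22 was highest in CD3 replicate 3, the library with the most B cell transcripts, and was -4.72 ± 0.33 in CD3_CD28 over CD3 cells (limma adjusted p = 4.99e-07), where Cd79a was near 0. In CD3_CD28_ICOS cells, where Cd79a was not near 0, Ccl22 averaged 71.55 ± 21.87 CPM (SD, n = 3). There it was not called against CD3 cells (-0.54 ± 0.33). The change of Ccl22 in CD3 over Unstimulated cells was 5.83 without CD3 replicate 3, and whether the B cell transcripts carry part of it was not tested.

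Most homing receptors and transcription factors of naive T cells were lower. Of 22 homing receptors and integrins 13 fell and 7 rose. S1pr1, the receptor for egress from lymph nodes, stood at 114, 84.1 and 103 CPM in CD3 against 642, 718 and 609 CPM in Unstimulated libraries (-2.70 ± 0.18, limma adjusted p = 2.58e-08). Ccr7, the chemokine receptor for lymph node entry, went the other way, with 863, 929.5 and 803 CPM in CD3 against 599.6, 661 and 510.4 CPM in Unstimulated libraries (0.56 ± 0.15). Of 23 factors of naive T cells and identity 15 fell and 3 rose, with a median of -0.84. Tcf7, the gene of TCF1, stood at 837, 664 and 777 CPM in CD3 against 2368, 2411 and 2037 CPM in Unstimulated libraries (-1.58 ± 0.13, limma adjusted p = 1.05e-07), and its relative Lef1 was lower too (-1.50 ± 0.12). Klf2, which drives S1pr1 and is itself a FOXO1 target, stood at 88.3, 99.9 and 97.7 CPM in CD3 against 359, 401 and 913 CPM in Unstimulated libraries (-2.41 ± 0.30). Unstimulated replicate 3 was the highest of the group, and without it the value was -1.99. Bach2, which holds back effector programs, rose by 0.71 ± 0.09. Myb, a factor of lymphocyte progenitors and dividing cells, stood at 524, 363 and 488 CPM in CD3 against 43.4, 24.7 and 26.1 CPM in Unstimulated libraries (3.85 ± 0.40) and 49 ± 19.7 CPM in CD3_CD28 (SD, n = 3).

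Genes of quiescence fell in 11 and rose in 2 of 15 tested members, with a median of -0.99. Btg1, which promotes RNA decay in resting T cells, stood at 532, 467 and 496 CPM in CD3 against 1357, 1299.6 and 1599 CPM in Unstimulated libraries (-1.50 ± 0.11), and Slfn2, whose loss breaks quiescence in mice, at 275, 246 and 225 against 511, 571 and 409.8 CPM (-0.99 ± 0.13). Tsc22d3, the glucocorticoid and FOXO target GILZ, stood at 37.5, 35 and 38.7 CPM in CD3 against 402, 259.8 and 506 CPM in Unstimulated libraries (-3.31 ± 0.23, limma adjusted p = 7.81e-08). Slfn3, a near relative of Slfn2, rose by 1.82 ± 0.15, and reads of such paralogs may be split by the counting. Of 8 GIMAP genes, GTPases of lymphocyte survival, 5 fell and 2 rose.

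Factors of helper and effector lineages mostly rose, 9 of 14 tested members, and 3 fell. Irf4, whose level follows the strength of the receptor signal (chromosome 13, 30749226 to 30766976), stood at 381, 367 and 335 CPM in CD3 against 16.96, 11.2 and 16.4 CPM in Unstimulated libraries (4.53 ± 0.15, limma adjusted p = 8.27e-11). Tbx21, the gene of T-bet, which directs TH1 cells, stood at 61.9, 60.96 and 56.7 CPM in CD3 against 5.55, 2.48 and 2.61 CPM in Unstimulated libraries (3.81 ± 0.20, limma adjusted p = 2.93e-09), and its relative Eomes at 90.5, 99.6 and 138 against 32.02, 22.9 and 18.7 CPM (2.12 ± 0.44). Foxp3, which defines regulatory T cells, was lower, at 14.8, 5.68 and 7.65 CPM in CD3 against 45.1, 30.2 and 45.4 CPM in Unstimulated libraries (-2.06 ± 0.55). Irf8 (4.17 ± 0.20) and Pou2af1 (3.22 ± 0.43) rose too. Both are also B cell genes. Without CD3 replicate 3, the library with the most B cell transcripts, the values were 4.14 and 3.17, and the part of B cell transcripts in them was not tested. Gata3, the factor of TH2 cells and of T cells at large, was not called (-0.39 ± 0.17), but was lower under quantile normalization (-0.61) and median of ratios (-0.56). Among cytotoxic granule genes, of which 7 of 10 rose and 3 fell, Gzmb, the gene of granzyme B (chromosome 14, 56258838 to 56262260), stood at 313, 533 and 377 CPM in CD3 against 3.51, 1.46 and 3.302 CPM in Unstimulated libraries (6.78 ± 0.32, limma adjusted p = 1.28e-08). Prf1, the pore-forming partner of granzymes, moved the other way, at 15.97, 10.7 and 13.5 against 64.9, 55.99 and 57.7 CPM (-2.08 ± 0.17).

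Survival genes shifted in both directions. Of 18 tested BCL2 family and death receptor genes 10 rose and 5 fell, against 43.6% and 26.3% of all genes. Bcl2l11, the gene of the pro-apoptotic protein BIM, stood at 236, 223 and 209 CPM in CD3 against 99.02, 82.1 and 68.2 CPM in Unstimulated libraries (1.43 ± 0.15, limma adjusted p = 2.26e-06), and Bcl2, which counters it, at 102, 133 and 102 against 295, 233 and 217 CPM (-1.14 ± 0.13, limma adjusted p = 2.30e-06). Bcl2l1, the gene of BCL-XL, which CD28 is known to raise, stood at 29.7, 37.1 and 37.5 CPM in CD3 against 18.9, 19.8 and 18.4 CPM in Unstimulated libraries (0.83 ± 0.13). Added anti-CD28 went with the opposite pattern for the first pair. CD3_CD28 cells held 50.1 ± 6.53 CPM of Bcl2l11 against 223 ± 13.6 CPM in CD3 cells (-2.14 ± 0.15, limma adjusted p = 3.34e-07), 441 ± 30.1 against 112 ± 18.2 CPM of Bcl2 (1.98 ± 0.13, limma adjusted p = 9.41e-08) and 208 ± 23.2 against 34.8 ± 4.37 CPM of Bcl2l1 (2.54 ± 0.13, limma adjusted p = 1.44e-08), as mean ± SD of n = 3. Of 11 tested genes of p53 and its targets 5 rose and none fell, a share of rises near the 43.6% of all genes. Under quantile normalization 3 rose and 2 fell.

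Cell division genes made the largest upward shift of the 50 lists as judged by the median. All 30 mitosis genes rose, with a median of 4.94, 33 of 34 DNA replication genes, with a median of 2.64, and 17 of 22 cyclins, CDKs, inhibitors and E2F genes, with a median of 2.54. Mki67, the proliferation marker Ki-67, stood at 1637, 1629 and 1677 CPM in CD3 against 47.5, 25.9 and 52.6 CPM in Unstimulated libraries (5.32 ± 0.26, limma adjusted p = 7.82e-09). Aspm, which focuses spindle poles (chromosome 1, 139454772 to 139494091), stood at 165, 173 and 179.6 CPM in CD3 against 2.18, 1.13 and 2.303 CPM in Unstimulated libraries (5.94 ± 0.20, limma adjusted p = 1.17e-10), and Cenpf, a kinetochore gene, at 239, 244 and 254 against 3.91, 1.89 and 4.69 CPM (5.83 ± 0.23, limma adjusted p = 7.88e-10). The spread of each among CD3 libraries was small beside the gap between groups. Of replication genes, Cdc6, which loads the helicase, stood at 52.1, 66.3 and 70.6 CPM in CD3 against 2.18, 1.202 and 3.48 CPM in Unstimulated libraries (4.33 ± 0.29), Pola1, the polymerase that starts new strands, at 119, 147 and 132 against 19.1, 16.2 and 16.8 CPM (2.87 ± 0.17), and the helicase subunit gene Mcm2 at 263 ± 12.6 against 102 ± 4.09 CPM (mean ± SD, n = 3; 1.35 ± 0.20). Mcm2 was thus well expressed before stimulation. Cdk6, a G1 kinase that binds D cyclins, rose by 2.79 ± 0.17, while the D cyclin gene Ccnd3 was lower (-0.82 ± 0.15). Cdkn1a, the gene of the inhibitor p21, stood at 16.7, 22.9 and 14.7 CPM in CD3 against 0.3997, 0.364 and 0.695 CPM in Unstimulated libraries (3.67 ± 0.21). Myc, which drives growth, was at 264, 243 and 235 against 101, 98.5 and 123 CPM (1.197 ± 0.13). Of 14 DNA methylation and Polycomb genes 8 rose and 5 fell, among the higher ones Uhrf1, which guides maintenance methylation (4.82 ± 0.23), and Ezh2, the Polycomb methyltransferase (2.92 ± 0.12).

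The promoters of the 2 mitosis and 2 replication genes with the largest called rise among those that hold the motif follow, with that motif in capitals. They are RefSeq promoters of build GRCm38.p6, 250 bases before to 50 after the start of each gene, 5′ to 3′ on its strand. In Aspm (chr1:139454523-139454822, strand plus) and Cenpf (chr1:189688037-189688336, strand minus) the capitals mark TTTGAA or TTTAAA, the forms of the cell cycle homology region that repressor complexes of mitosis genes read, on either strand. In Cdc6 (chr11:98907901-98908200, strand plus) and Pola1 (chrX:93632106-93632405, strand minus) they mark TTTCCCGC or TTTGGCGC, the classical E2F site, here as its reverse complement.
Aspm promoter: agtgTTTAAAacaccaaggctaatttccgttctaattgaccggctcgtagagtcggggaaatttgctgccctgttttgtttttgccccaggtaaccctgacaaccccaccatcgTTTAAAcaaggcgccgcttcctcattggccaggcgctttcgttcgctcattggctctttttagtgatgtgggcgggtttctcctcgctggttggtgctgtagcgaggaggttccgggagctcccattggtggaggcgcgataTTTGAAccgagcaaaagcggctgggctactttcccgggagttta
Cenpf promoter: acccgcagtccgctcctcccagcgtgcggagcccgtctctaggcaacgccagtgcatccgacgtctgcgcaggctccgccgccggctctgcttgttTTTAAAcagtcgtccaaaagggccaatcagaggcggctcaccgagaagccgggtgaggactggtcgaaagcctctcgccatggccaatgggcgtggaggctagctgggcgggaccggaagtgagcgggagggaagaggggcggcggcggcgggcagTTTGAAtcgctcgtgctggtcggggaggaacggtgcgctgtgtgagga
Cdc6 promoter: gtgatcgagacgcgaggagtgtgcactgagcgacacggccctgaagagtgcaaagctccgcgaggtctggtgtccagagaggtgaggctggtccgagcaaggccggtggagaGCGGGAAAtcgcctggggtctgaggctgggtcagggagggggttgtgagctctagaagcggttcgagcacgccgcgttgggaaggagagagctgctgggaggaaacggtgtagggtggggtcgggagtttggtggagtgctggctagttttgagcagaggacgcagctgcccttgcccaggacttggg
Pola1 promoter: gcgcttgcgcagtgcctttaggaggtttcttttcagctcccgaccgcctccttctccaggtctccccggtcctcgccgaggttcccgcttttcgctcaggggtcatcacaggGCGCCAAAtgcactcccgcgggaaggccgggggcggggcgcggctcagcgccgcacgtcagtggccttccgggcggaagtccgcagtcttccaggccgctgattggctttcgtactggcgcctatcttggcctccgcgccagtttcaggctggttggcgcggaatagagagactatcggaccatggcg
Counted from the start, the cell cycle element begins at bases -246, -136 and 7 in Aspm and at -154 and 3 in Cenpf, and the E2F site at -138 in Cdc6 and at -138 in Pola1. The cell cycle element was found in 22 of 26 mitosis promoters (84.6%), against 18.9% of the 7402 promoters of tested genes and 27.8% of all 27025 promoters. The E2F site was found in 10 of 27 replication promoters (37.0%), against 3.57% and 1.63%. CCAAT, the box of factor NF-Y, which can share an end base with the element, was found in 20 of 26 mitosis promoters (76.9%), against 39.6% and 37.9%. Other motifs searched in the same way were found at shares nearer to those of all tested promoters or in few promoters. CACGTG, the E-box of MYC and MAX, was found in 4 of 25 ribosome biogenesis and 2 of 20 nucleotide, serine and one-carbon promoters, against 10.8% of promoters of tested genes. TGANTCA, the AP-1 site, was found in 0 of 13 inhibitory receptor, 1 of 10 costimulatory and 2 of 8 cytokine promoters, against 4.44%. TGGAAA, the NFAT core with a flank, was found in 2 of 13, 3 of 10 and 2 of 8 of these, against 15.8%. These matches are letters in a window and describe neither binding nor a cause.

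Aminoacyl-tRNA synthetase and proteasome genes rose as well, with lower medians than cell division genes. All 20 tested cytosolic aminoacyl-tRNA synthetases rose, with a median of 1.02, as in both other scalings, and 26 of 29 proteasome subunits, with a median of 0.65. Vars, the valyl-tRNA synthetase gene, stood at 389, 435 and 429.6 CPM in CD3 against 166, 116 and 125 CPM in Unstimulated libraries (1.63 ± 0.12). Of 29 ribosome biogenesis genes 14 rose and none fell, and 11 rose and 2 fell under median of ratios, a share near the 43.6% of all genes that rose. Ncl, the gene of the nucleolar protein nucleolin, stood at 2131, 2137 and 2028 CPM in CD3 against 912, 886 and 976 CPM in Unstimulated libraries (1.18 ± 0.07, limma adjusted p = 6.36e-09). Of 18 translation initiation genes 13 rose and 3 fell. Eif4ebp1, the mTOR-regulated inhibitor of the cap-binding factor, stood at 36.9, 44.5 and 31.9 CPM in CD3 against 4.22, 4.08 and 5.47 CPM in Unstimulated libraries (2.79 ± 0.26), and Pdcd4, an inhibitor of the helicase EIF4A, at 221, 205 and 204 against 576, 537 and 508 CPM (-1.36 ± 0.09, limma adjusted p = 1.26e-08).

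Glucose metabolism genes rose in 20 of 21 tested members, with none lower and a median of 2.31, and did so under both other scalings. Slc16a3, the lactate exporter MCT4 (chromosome 11, 120948480 to 120960868), stood at 267, 327 and 236 CPM in CD3 against 3.69, 2.33 and 2.52 CPM in Unstimulated libraries (6.17 ± 0.28, limma adjusted p = 4.09e-09). Hk2, the hexokinase that traps glucose, stood at 115, 188 and 137 CPM in CD3 against 4.796, 2.11 and 2.39 CPM in Unstimulated libraries (5.20 ± 0.45, limma adjusted p = 2.72e-06), and the glucose transporter gene Slc2a3 at 588, 1000.1 and 641 against 64.6, 59.1 and 51.1 CPM (3.62 ± 0.56). In each of these 3 genes, CD3 replicate 2 was the highest library and all 3 CD3 libraries were above the Unstimulated ones. Ldhb, which favours the use of lactate, was the member not called (0.23 ± 0.14) and turned to -0.16 under quantile normalization. Amino acid transporters rose in 9 of 12, with Slc7a5, the large neutral amino acid transporter, at 134, 143 and 142 CPM in CD3 against 59.4, 57.4 and 58.4 CPM in Unstimulated libraries (1.24 ± 0.20). Nucleotide, serine and one-carbon genes rose in 20 of 22 and fell in 1. Psat1, a serine synthesis enzyme, stood at 239, 252 and 232 CPM in CD3 against 34.8, 39.3 and 40.6 CPM in Unstimulated libraries (2.63 ± 0.14, limma adjusted p = 1.94e-09), and Shmt1, the cytosolic one-carbon enzyme, rose by 2.39 ± 0.31. Odc1, the rate-limiting enzyme of polyamine synthesis, stood at 155, 172 and 154 CPM in CD3 against 20.4, 17.2 and 20.8 CPM in Unstimulated libraries (2.98 ± 0.21). Mitochondrial genes rose less. The medians were 0.47 for 17 TCA cycle genes (14 higher, 1 lower), 0.47 for 24 nuclear respiratory chain genes (17 and 1) and 0.42 for 23 genes of mitochondrial import and ribosomes (16 and 1, but 6 and 2 under quantile normalization).

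**Figure D3:**
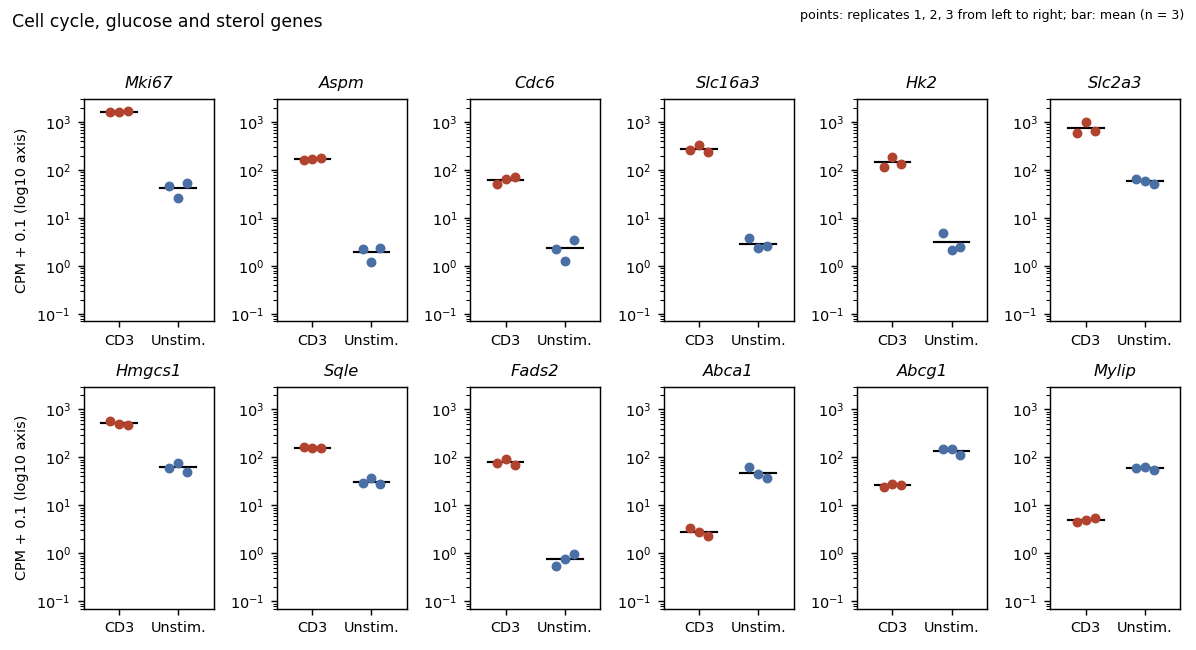
CPM of 12 cell cycle, metabolism and sterol genes in each library (points, log10 axis of CPM + 0.1) with the group mean (bar), in CD3 (left) and Unstimulated (right) cells. The 9 cell cycle, glycolysis and sterol synthesis genes are higher in each CD3 library, and the efflux genes Abca1 and Abcg1 and the gene Mylip lower.

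Genes of sterol supply rose and the efflux genes Abca1 and Abcg1 fell. Of 30 tested cholesterol and fatty acid genes 29 rose and none fell (median 1.88), and 29 rose and 1 fell under both other scalings. Of 5 tested members of the sterol efflux list 3 fell and none rose, among them Mylip, which is not an exporter. Hmgcs1 encodes a synthase of the mevalonate pathway and Sqle the epoxidase that follows squalene formation. Hmgcs1 (chromosome 13, 119690379 to 119708260) stood at 578, 496 and 471 CPM in CD3 against 60.04, 77.8 and 48.8 CPM in Unstimulated libraries (3.05 ± 0.20, limma adjusted p = 3.64e-08), and Sqle at 165, 154 and 158 against 28.9, 37.1 and 27.5 CPM (2.33 ± 0.13, limma adjusted p = 3.39e-09). Fads2, a fatty acid desaturase gene, stood at 75.7, 93.1 and 70.7 CPM in CD3 against 0.444, 0.656 and 0.869 CPM in Unstimulated libraries (5.61 ± 0.18, limma adjusted p = 8.27e-11). Of the genes driven by the sterol-sensing nuclear receptor LXR, Abca1, the cholesterol exporter, stood at 3.25, 2.73 and 2.15 CPM in CD3 against 63.01, 44.5 and 37.2 CPM in Unstimulated libraries (-3.71 ± 0.27, limma adjusted p = 4.36e-08), Abcg1 at 24.1, 28.5 and 26.6 against 148, 152 and 111 CPM (-2.32 ± 0.18), and Mylip, which removes the LDL receptor, at 4.299, 4.97 and 5.43 against 61.01, 62.5 and 54.6 CPM (-3.36 ± 0.16). Macrophages also express Abca1 and Abcg1, and myeloid markers summed to 82.5 ± 18.6 CPM in CD3 against 438 ± 232 CPM in Unstimulated libraries (SD, n = 3), and their part was not tested. The promoter of Hmgcs1 (chr13:119690101-119690400, strand plus) is shown because it holds TCACNCCAC, the sterol response element, in capitals from base -137. On either strand, 1 of 20 list promoters (5%), 1.04% of promoters of tested genes and 1.22% of all promoters held it.
Hmgcs1 promoter: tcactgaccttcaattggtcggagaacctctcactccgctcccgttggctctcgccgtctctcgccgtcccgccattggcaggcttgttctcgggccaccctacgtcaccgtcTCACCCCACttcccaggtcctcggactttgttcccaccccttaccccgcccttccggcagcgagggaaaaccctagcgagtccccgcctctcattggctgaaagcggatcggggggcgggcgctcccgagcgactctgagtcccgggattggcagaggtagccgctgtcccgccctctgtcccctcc

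Lysosome and autophagy genes fell in 12 and rose in 6 of 23, with the protease gene Ctsd at 169.5, 132 and 128 CPM in CD3 against 503, 452 and 429 CPM in Unstimulated libraries (-1.69 ± 0.11). Of 18 tested interferon response genes 6 rose and 7 fell. Ifit1 (-2.58 ± 0.19) and Ifit3 (-3.12 ± 0.31), antiviral genes of the type I response, were lower, while Gbp2, a guanylate-binding protein gene of the interferon-gamma response, stood at 1337, 1857 and 1515 CPM in CD3 against 108, 109 and 111 CPM in Unstimulated libraries (3.82 ± 0.14, limma adjusted p = 1.15e-10). Of 17 tested antigen presentation genes 6 rose and 4 fell, against 43.6% and 26.3% of all genes tested. The class I heavy chain genes H2-K1 (-0.83 ± 0.08) and H2-D1 (-0.88 ± 0.08), which share reads with close paralogs, were lower, and Tap1, the peptide pump (1.24 ± 0.13), and Psmb9, an immunoproteasome subunit (1.28 ± 0.10), higher. Of 20 tested galectin, S100, annexin and structural genes 12 rose and 5 fell, with Anxa2 at 437, 412 and 371 CPM in CD3 against 25.8, 13.4 and 20.6 CPM in Unstimulated libraries (4.33 ± 0.42) and Lgals1, the gene of galectin 1, at 337, 225 and 288 against 34.6, 37.3 and 45.2 CPM (2.82 ± 0.15, limma adjusted p = 3.43e-09).

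The 10 largest rises among called genes without overlap, with a mean of at least 50.8 CPM in the higher group, were Gzmb, Tg, Slc16a3, Ccl22, Aspm, Cenpf, Kif4, Aurkb, Espl1 and Hmmr, of which the last 6 serve mitosis. Tg, the thyroglobulin gene, is no known T cell product, and stood at 149.9, 134 and 128 CPM in CD3 against 0.355, 0.619 and 0.434 CPM in Unstimulated libraries (6.56 ± 0.26, limma adjusted p = 6.34e-10) and at 228 ± 22.9 and 117 ± 58.8 CPM in CD3_CD28 and CD3_CD28_ICOS cells (SD, n = 3). Of the 10 largest falls 8 were pancreatic enzyme genes, such as the lipase gene Pnlip at 0, 0.03796 and 0 CPM in CD3 against 432, 363 and 79.7 CPM in Unstimulated libraries. All 14 tested acinar genes fell, against 26.3% of all genes, and 13 of the 23 listed were at 0 in each CD3 library. The acinar sum was at most 2.19 CPM in a CD3 library, so none could reach 10 CPM there. Their shared fall was thus largely fixed by the filter. Vcam1, an adhesion molecule of stroma and macrophages, stood at 0, 0.03796 and 0 CPM against 230.3, 76.1 and 51.6 CPM, and the myeloid gene Csf1r at 0.203, 0.126 and 0 against 146, 57.1 and 44.6 CPM. Pnlip, Vcam1 and Csf1r were each highest in Unstimulated replicate 1. The other large fall was Ifi208, an interferon-inducible gene of the p200 family, with 0.439, 1.12 and 0.678 CPM in CD3 against 165, 180.4 and 156 CPM in Unstimulated libraries (-6.61 ± 0.22, limma adjusted p = 6.88e-11). Its values were even across Unstimulated replicates, unlike those of the acinar and myeloid genes.

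**Figure D4:**
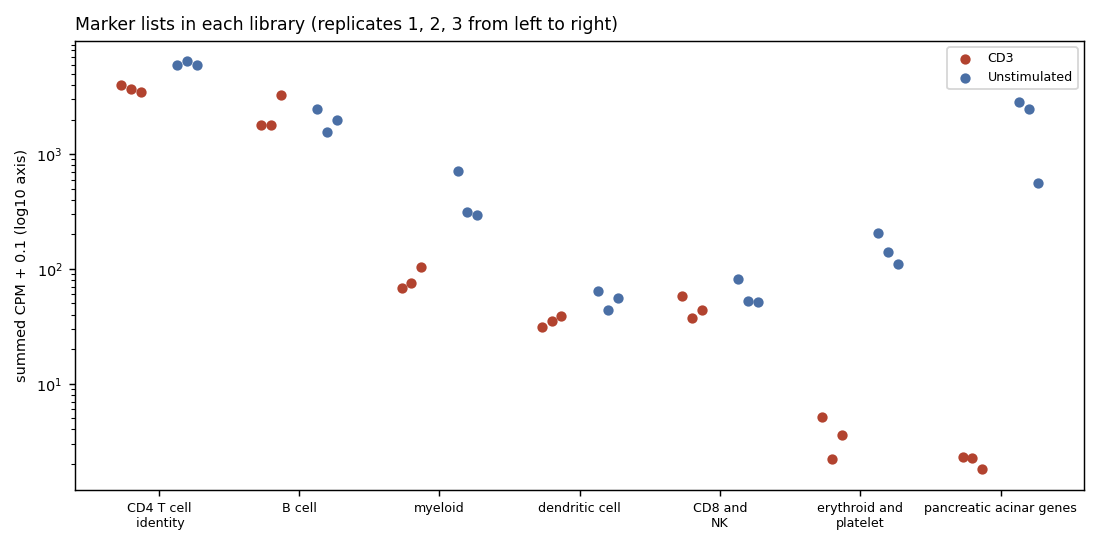
Summed CPM of marker lists (log10 axis of CPM + 0.1) in each CD3 (left) and Unstimulated (right) library, 1 point per library. Pancreatic, myeloid and erythroid sums are lower in each CD3 library, CD4 T cell identity differs by less, and B cell sums are highest in CD3 replicate 3.

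The cells given costimulation show how the levels under anti-CD3 alone stand among the stimulated groups. Of the 9826 genes, 1837 were higher in CD3_CD28 than in CD3 cells (18.7%) and 4487 lower (45.7%), and in CD3_CD28_ICOS against CD3 cells 1859 were higher (18.9%) and 2824 lower (28.7%). The first split again depends on the scaling, being 2882 and 3109 under quantile normalization and 2909 and 3100 under median of ratios, with a median over all genes of -0.24 as deposited and -0.03 under both others. For CD3_CD28_ICOS against CD3 it was 2591 higher and 2542 lower under quantile normalization and 2378 and 2539 under median of ratios. The comparisons share the CD3 libraries. Against CD3, replication genes were lower in 32 of 34 in CD3_CD28, with a median of -1.13, and in 34 of 34 in CD3_CD28_ICOS, with a median of -1.23. They were lower in 32 and 34 under quantile normalization and in 31 and 34 under median of ratios. Mcm2 averaged 106 ± 22.3 CPM in CD3_CD28 (-1.32 ± 0.20, limma adjusted p = 1.43e-04) and 96.2 ± 37.05 CPM in CD3_CD28_ICOS (-1.51 ± 0.20, limma adjusted p = 1.14e-04), against 263 ± 12.6 CPM in CD3 cells (SD, n = 3). Mitosis genes were lower in 26 and 19 of 30, with Mki67 at 858 ± 229 CPM in CD3_CD28 (-0.98 ± 0.26, limma adjusted p = 0.0068) and 1218 ± 237 CPM in CD3_CD28_ICOS (-0.46 ± 0.26, not called), against 1648 ± 25.6 CPM in CD3 cells. Proteasome subunits were lower in 24 of 29 in each group, and in 17 and 22 under median of ratios.

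Glycolysis and costimulatory genes ran the other way in CD3_CD28 cells. Glycolysis genes were higher in CD3_CD28 than in CD3 cells in 14 of 21 and lower in none, while in CD3_CD28_ICOS cells 7 were lower and none higher, 4 and none under median of ratios, which is near the 28.7% of all genes that were lower. Hk2 averaged 458 ± 5.62 CPM in CD3_CD28 (1.67 ± 0.45, limma adjusted p = 0.0088) and Gapdh, the gene of a central glycolytic enzyme, 803 ± 122 CPM (0.95 ± 0.23, limma adjusted p = 0.0036), against 147 ± 37.7 and 419 ± 104 CPM in CD3 cells. Costimulatory and TNF family genes were higher in CD3_CD28 in 10 of 16 and lower in 3, with Icos at 233 ± 18.8 CPM in CD3_CD28 (1.44 ± 0.10, limma adjusted p = 3.01e-07) against 85.5 ± 5.76 CPM in CD3 cells. Il2ra, of the cytokine receptor list, averaged 1151 ± 156 CPM in CD3_CD28 against 440.3 ± 20.2 CPM in CD3 cells (1.38 ± 0.14, limma adjusted p = 4.53e-06). The genes of the receptor complex were higher in CD3_CD28_ICOS than in CD3 cells in 24 of 34 and lower in 3, and those of naive identity in 13 of 23 and lower in 1. Tcf7 averaged 1892 ± 112 CPM in CD3_CD28_ICOS (1.32 ± 0.13, limma adjusted p = 6.52e-06) and 408 ± 77.5 CPM in CD3_CD28 (-0.90 ± 0.13, limma adjusted p = 5.19e-05), against 759.7 ± 87.8 CPM in CD3 cells. For Tcf7, CD3 cells thus lay between both other groups.

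Single NFAT and AP-1 genes stood differently under anti-CD3 alone than with anti-CD28. Nfatc1 averaged 258 ± 34.4 CPM in CD3_CD28 (-0.79 ± 0.11, limma adjusted p = 4.01e-05) and 341 ± 28.3 CPM in CD3_CD28_ICOS (-0.39 ± 0.11, limma adjusted p = 0.0102), against 447 ± 41.3 CPM in CD3 cells, so CD3 cells held the most (SD, n = 3 here and below). Of the AP-1, BATF and MAF list 3 of 10 tested members were higher and none lower in CD3_CD28 than in CD3 cells (median 0.10, against 18.7% of all genes higher), and 1 was higher and none lower in CD3_CD28_ICOS (median 0.08), so most members were not called. Batf averaged 40.7 ± 11.2 CPM in CD3_CD28 (1.17 ± 0.17, limma adjusted p = 5.39e-05) and 43.9 ± 6.89 CPM in CD3_CD28_ICOS (1.29 ± 0.17, limma adjusted p = 5.20e-05), against 17.2 ± 0.711 CPM in CD3 cells. Fosl2 averaged 272 ± 47.9 CPM in CD3_CD28 (2.03 ± 0.43, limma adjusted p = 0.0023) and 73.04 ± 34.2 CPM in CD3_CD28_ICOS (0.05 ± 0.43, not called), against 66.2 ± 14.3 CPM in CD3 cells. Of the feedback factors, Nr4a2 averaged 22.8 ± 9.43 CPM in CD3_CD28 (-1.50 ± 0.31, limma adjusted p = 0.0011) and 5.77 ± 2.25 CPM in CD3_CD28_ICOS (-3.28 ± 0.31, limma adjusted p = 7.77e-06), against 63.04 ± 10.3 CPM in CD3 cells, and Egr2 24.8 ± 2.39 CPM in CD3_CD28 (-1.64 ± 0.28, limma adjusted p = 2.89e-04), against 81.7 ± 25.7 CPM in CD3 cells. Over the whole EGR, NR4A and anergy list 10 of 19 genes were lower and 4 higher in CD3_CD28 than in CD3 cells. These shares are near the 45.7% and 18.7% of all genes, and under median of ratios 8 were lower and 7 higher. In CD3_CD28_ICOS cells 6 were lower and 4 higher, near the 28.7% and 18.9% of all genes. Effector genes were not ordered alike. Gzmb averaged 1579 ± 248 CPM in CD3_CD28 (1.97 ± 0.32, limma adjusted p = 3.71e-04) and 49.2 ± 20.5 CPM in CD3_CD28_ICOS (-3.07 ± 0.32, limma adjusted p = 4.29e-05), against 408 ± 113 CPM in CD3 cells, and Irf4 638 ± 95.2 and 152 ± 15.1 CPM against 361 ± 23.8 CPM, with CD3 cells between the others in both. Spp1 averaged 0.162 ± 0.167 and 1.404 ± 1.38 CPM in CD3_CD28 and CD3_CD28_ICOS cells against 28.2 ± 9.74 CPM in CD3 cells, and Gbp2 177 ± 25.3 and 590.3 ± 86.5 CPM against 1569.5 ± 264 CPM.

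The genes that CD3 cells held highest against both others, by the smaller of both differences, were Endod1, Alcam, Pou2af1, Gucy1a1, Shmt1 and Slc29a1. Alcam, the ligand of the T cell surface protein CD6, averaged 34.7 ± 7.18 CPM in CD3_CD28 (-2.16 ± 0.23, limma adjusted p = 8.27e-06) and 35.5 ± 9.17 CPM in CD3_CD28_ICOS (-2.13 ± 0.23, limma adjusted p = 2.29e-05), against 156 ± 17.6 CPM in CD3 cells. Slc29a1, a nucleoside transporter, averaged 33.7 ± 5.67 and 61.3 ± 13.6 CPM against 199.5 ± 13.1 CPM in CD3 cells. Pou2af1 is also a B cell gene. The B cell gene Cd79a averaged 0.765 ± 0.427 CPM in CD3_CD28 and 79.2 ± 37.8 CPM in CD3_CD28_ICOS against 60.04 ± 24.9 CPM in CD3 cells, so it was near 0 in CD3_CD28 alone, and the part of B cell transcripts was not tested. Those they held lowest were Camk4, Il12rb2, Cd226, Trat1, Arl4c and Crim1. Camk4, a calcium-dependent kinase of T cells, averaged 159.7 ± 9.32 CPM in CD3_CD28 (1.61 ± 0.10, limma adjusted p = 9.41e-08) and 154 ± 18.1 CPM in CD3_CD28_ICOS (1.55 ± 0.10, limma adjusted p = 5.51e-07), against 51.7 ± 4.92 CPM in CD3 cells. Cd226, a costimulatory receptor that shares ligands with TIGIT, averaged 65.7 ± 4.47 and 66.2 ± 4.26 CPM against 24.1 ± 2.37 CPM in CD3 cells. Il12rb2 was far higher in CD3 than in Unstimulated cells and yet lower than in either group with costimulation, at 485 ± 24.7 CPM in CD3_CD28 and 252 ± 48.9 CPM in CD3_CD28_ICOS, against 93.7 ± 22.1 CPM in CD3 and 1.59 ± 0.446 CPM in Unstimulated cells (SD, n = 3).

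**Figure D5:**
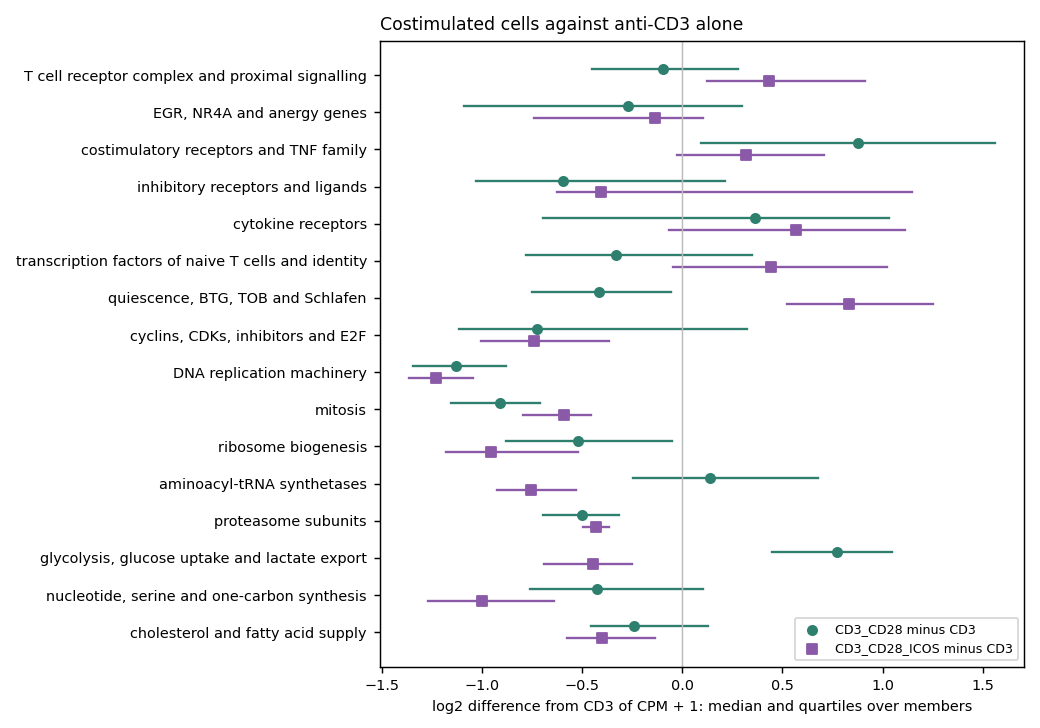
Median log2 difference from CD3 of the tested members of 16 gene lists, for CD3_CD28 (circles) and CD3_CD28_ICOS (squares), with horizontal lines from the lower to the upper quartile over members. Replication genes lie left of 0 in both, while glycolysis genes lie right of 0 in CD3_CD28 alone.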

How the data were processed

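Total RNA of CD4+ T cells (RNeasy extraction, paired-end sequencing, per the labels' protocols) was measured in 12 libraries. The authors deposited CPM per gene and library, made with Partek version 10 on mouse build mm10 per the submitters' processing notes. The aligner, counter, annotation and use of strand are unknown here, being named in no label or header, so reads of a gene and of an antisense or overlapping gene or close paralog may not be separated. Each cell held an added 0.0001, which was removed. Whole reads could not be recovered, since only 75.7% to 80.3% of values up to 1.2 CPM were whole multiples of 1 read (within 0.02 over all libraries), so no count test was run. The authors also deposited p-values, false discovery rates and log2 ratios of their own DESeq2 comparison, from which only counts of genes are given.

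The 9826 genes that reached 10 CPM in 3 or more of the libraries were tested with limma 3.58.1 in R 4.3.3, with a trended, robust spread shared by the 4 groups, on log2(CPM + 1). Tests were two-sided, with Benjamini-Hochberg adjustment over all of them. In a library, precision was set by its depth and in a comparison by n = 3. A median of ratios and a quantile normalization, other pseudocounts and filters, a replicate block and leaving out each library were tried. The 50 gene lists (962 genes, 847 tested), the members and the rule for named genes were chosen with earlier results of these data known. Named were the 10 largest called rises and falls without overlap and with a mean of at least 50.8 CPM, key genes of each list, the 3 largest called changes in a list's main direction and 1 in the other, the 6 genes highest and lowest in CD3 against both other stimulated groups, and genes over 1% of a library. Cdc6 and Pola1 were named by the rule for promoters. Gene coordinates are those of GENCODE for GRCm38, which hold 16809 of the 17203 gene names, and promoters those of RefSeq.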

Additional observations from a re-analysis of the deposited data

How the results depend on the processing

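Over 15 alternatives, 142 of 150 genes named in the text kept their direction and side of the threshold, and 2223 of their 2249 values did. Of the 6862 genes called between CD3 and Unstimulated, 6775 were called in the same direction in a fit of the 6 libraries alone, 6126 under median of ratios and 5650 under quantile normalization, where 9 were called in the opposite one. Without a filter on low values all 17203 genes listed were tested, and 5771 were higher and 4472 lower in CD3, against 4280 and 2582. The number higher in CD3_CD28 than in CD3 was 2882 under quantile normalization and 2909 under median of ratios, against 1837. Leaving out 1 library gave 6305 to 6589 genes called between CD3 and Unstimulated, 5528 to 5995 between CD3_CD28 and CD3 and 3658 to 4648 between CD3_CD28_ICOS and CD3, and among list members 659 to 671, against 696. Ldhb turned to -0.16 and Tnf to -0.055 under quantile normalization, and the rRNA gene CT010467.1 to 0.35, and between -0.646 and 0.025 when 1 library was left out. The causes were not tested.

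No pairing of CD3 with Unstimulated libraries by replicate number was seen. Deviations of same-numbered libraries correlated at -0.04, 0.00 and -0.05, and those of differently numbered ones at -0.14 to 0.17. With 3 libraries a group, these values cannot settle whether libraries share an animal. With a replicate block 6795 genes were called (4250 higher, 2545 lower) and 702 list members. Each CD3 library correlated best with its own number in CD3_CD28 and in CD3_CD28_ICOS, a hint from the data only, and the block gave 6262 and 4589 calls there. Of 100 counts of list members 68 stayed within 1.5 times under every alternative. Depth limits the cytokine genes of under 10 CPM, which were not tested.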

Other observations

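MYC partners moved in both directions, with 4 of 9 tested members higher and 3 lower in CD3 cells, against 43.6% and 26.3% of all genes. Mxi1, a repressor that competes with MYC for MAX, stood at 77.9, 89.7 and 77.6 CPM in CD3 against 29.6, 26.96 and 23.9 CPM in Unstimulated libraries (1.58 ± 0.27, limma adjusted p = 2.26e-04), while its relative Mxd4 stood at 85.02, 52 and 61.3 against 106, 101 and 105 CPM (-0.67 ± 0.14, limma adjusted p = 8.77e-04). Of 9 tested polyamine genes 7 rose and none fell, including Sat1, which starts polyamine breakdown (0.54 ± 0.12). Arl4c, a small GTPase gene and an LXR target in other cells, was far lower, at 31.9, 38.8 and 40.4 CPM in CD3 against 749, 867 and 745 CPM in Unstimulated libraries (-4.38 ± 0.12, limma adjusted p = 5.27e-11).

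Of the genes over 1% of a library, 4 were nuclear copies of mitochondrial genes. No gene with the prefix mt-, that of mitochondrially encoded genes, is among the 17203 listed. Gm10925 is identical to mt-Atp6 over 678 bases, Gm28437 to mt-Co3 over 783 and Gm28661 to mt-Co2 over 681, and Gm29216 matches mt-Co1 at 99.8% over 483 bases. Gm10925 stood at 1779.7, 2015 and 2217 CPM in CD3 against 11428, 8162 and 9594 CPM in Unstimulated libraries (-2.27 ± 0.15, limma adjusted p = 2.57e-08), and the other 3 were lower by a like amount (-1.99, -2.15 and -2.004). Reads of the copies and of the mitochondrial genes cannot be told apart, and the nuclear respiratory chain genes moved the other way (median 0.47). The rRNA gene CT010467.1 held 13498, 15748 and 14905 CPM in CD3 and 12644, 16486 and 32029 CPM in Unstimulated libraries and was not called.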
